A study of Mus musculus with 12 samples.

Results

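TNF, its 2 receptors and the adaptors that carry the receptor signal were followed as 8 transcripts in myeloid cells of regenerating mouse muscle. The genes were Tnf, Tnfrsf1a, Tnfrsf1b, Tradd, Traf1, Traf2, Ripk1 and Birc3, taken by symbol from a deposited table of 24421 symbols. All 8 were in the table, and all 8 were among the 12981 genes that passed the filter on low counts. The cells came from tibialis anterior muscle 5 days after injury with notexin, a snake venom toxin that destroys muscle fibres. They had been sorted by flow cytometry as viable CD45-positive, CD11B-positive cells without LY6G or SIGLECF, a gate that removes neutrophils and eosinophils. The 4 groups held 3 libraries each. They were Ifngr1 wt/null mice given an isotype antibody, wt/null mice given an anti-TNF neutralizing antibody, null/null mice given the isotype antibody, and null/null mice given anti-TNF. Antibody was injected into the peritoneum each day after the injury. The Ifngr1 product binds interferon gamma, and all 4 groups carried at least 1 null allele, so no group was fully wild-type. Age, sex and strain were not given in the labels, which also do not say whether each library was a separate mouse. P-values therefore measure the spread between these libraries, which may be technical in part.

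TNF is made by macrophages and other immune cells as a membrane protein and is cut loose by the protease ADAM17. Its receptor TNFR1, encoded by Tnfrsf1a, is found on most cells and has a death domain that recruits TRADD and the kinase RIPK1. TNFR2, encoded by Tnfrsf1b, is mostly found on leukocytes and endothelium and binds TRAF2 directly. TRAF2 brings in the ubiquitin ligases cIAP1 and cIAP2, and cIAP2 is encoded by Birc3. The complex activates NF-κB, and Traf1, Birc3 and Tnf are themselves known NF-κB target genes. In injured muscle, macrophages are a known source of TNF. The antibody acts on the protein, so the Tnf transcript is no measure of how well TNF was neutralized.

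Regulatory sequences of Tnf are shown here as background, and whether they bear on its spread between libraries was not tested. The promoter of Tnf carried a TATAAA whose first base lies 29 bases before the start. The 250 bases before the RefSeq start on GRCm38.p6 are shown for Tnf (chr17:35202008-35202257, minus strand) and for Tnfrsf1b (chr4:145246871-145247120, minus strand), with TATAAA in capitals.
Tnf: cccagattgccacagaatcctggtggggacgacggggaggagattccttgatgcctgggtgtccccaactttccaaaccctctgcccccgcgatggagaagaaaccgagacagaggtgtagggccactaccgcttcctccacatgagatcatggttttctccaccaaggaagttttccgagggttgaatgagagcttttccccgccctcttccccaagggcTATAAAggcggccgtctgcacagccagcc
Tnfrsf1b: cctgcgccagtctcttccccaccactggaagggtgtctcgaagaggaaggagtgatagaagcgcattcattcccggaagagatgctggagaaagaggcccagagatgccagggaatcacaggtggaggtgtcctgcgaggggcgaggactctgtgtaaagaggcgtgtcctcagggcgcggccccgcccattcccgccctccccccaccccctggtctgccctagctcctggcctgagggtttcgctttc
TATAAA was searched on both strands, and it was in 1 of the 8 windows available for 7 of the genes (Ripk1 has 2). Of all 32851 promoter windows, 12.4% held it on either strand and 1.99% held it on the gene's strand with its first base 20 to 40 bases before the start. An NF-κB-type motif, searched as 1 pattern on both strands of these 250 bases, was in 0 of the 8 windows and in 4.11% of all windows. At so low a rate, 0 of 8 windows cannot show that these genes lack NF-κB sites. Other forms of the motif and sites further from the start were not searched.

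The 3′ untranslated region of Tnf was rich in ATTTA, the core of the AU-rich element through which proteins such as tristetraprolin (Zfp36) speed the decay of mRNA. The densest 30 bases in GENCODE vM21, bases 437 to 466 of 764 after the stop codon, are shown with each ATTTA in capitals.
Tnf: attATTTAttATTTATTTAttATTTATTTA
These 30 bases held 5 copies, counting overlaps, and the whole region held 8, or 10.5 per kb. Over 19921 genes with at least 100 bases of this region, the median was 1.35 per kb, and 99.3% of genes had a lower density than Tnf. Birc3 was next among the 8 genes with 7 copies in 1525 bases (4.59 per kb, above 90.7% of genes), and Tnfrsf1a and Tradd held 0. The longer motif TTATTTATT occurred 5 times in Tnf, 3 times in Birc3 and 2 times in Ripk1, and 8.06% of genes held it at least once.

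Library depth was 23.2 to 29.9 M counts (M is mega), and between 574 and 2566 counts lay behind each Tnf value. The unit of level is CPM, the counts of a gene for each M counts sequenced, with library totals scaled by TMM. Ifngr1 checked the genotype labels: the 6 null/null libraries lay between 83.3 and 119 CPM and the 6 wt/null libraries between 226 and 250 CPM. All 8 macrophage markers tried (among them Ptprc, Itgam, Adgre1 and Csf1r) were detected in every library and summed to 22341 to 28821 CPM. Ptprc and Itgam encode CD45 and CD11B, on which the cells were sorted. Their presence was set by the gate and says nothing more about the labelled cell type, macrophages. Markers of cells outside the gate were present at lower levels: 6 neutrophil markers summed to 6.53 to 37.9 CPM and 4 eosinophil markers to 6.36 to 13.0 CPM, with Epx at 0 counts in every library. The 3 fibroblast markers summed to 92.4 to 604 CPM and the 4 muscle markers to 42.1 to 83.9 CPM. Anti-TNF libraries wt/null replicate 2 and null/null replicate 1 stood apart from the other 10. Their 6 dendritic cell markers (Flt3, Zbtb46, Xcr1, Clec9a, Cd209a and Dpp4) summed to 302 and 259 CPM, against 77.2 to 129 CPM in the others. Their 4 markers of mature dendritic cells (Ccr7, Fscn1, Il4i1 and Cacnb3) summed to 225 and 218 CPM, against 59.5 to 113 CPM. Their osteoclast-type markers summed to 408 and 483 CPM, against 888 to 3533 CPM. Fibroblast markers summed to 150 and 92.4 CPM in them, against 232 to 604 CPM, and 4 endothelial markers to 45.7 and 40.9 CPM, against 16.6 to 32.6 CPM. Each of these values is a sum over a list, which an abundant gene can carry. The part of these cell types in the results was not tested, and averaged antibody effects that rest on these libraries are given with and without them.

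In GENCODE vM21 on mm10, Tnf lies at chr17:35199381-35202007 (minus strand), Tnfrsf1a at chr6:125349362-125362484 (plus) and Tnfrsf1b at chr4:145213463-145246870 (minus). Tradd lies at chr8:105258286-105264609 (minus), Traf1 at chr2:34941750-34961772 (minus) and Traf2 at chr2:25517982-25546940 (minus). Ripk1 lies at chr13:34002363-34037147 (plus) and Birc3 at chr9:7848699-7873186 (minus).

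Receptor transcripts exceeded the ligand transcript in every library when levels were set per length of exon. The gap was narrowest in wt/null anti-TNF replicate 2, with Tnf at 64.1 and Tnfrsf1a at 82.5 CPM per kb. Tnfrsf1b stood at a median of 180 CPM per kb (154 to 212 over the 12 libraries) and Tnfrsf1a at 79.2 CPM per kb (71.8 to 87.5), and these ranges did not overlap. Birc3 followed at 24.6 CPM per kb (21.8 to 32.5), then Tnf at 17.8 (12.7 to 64.1), Ripk1 at 12.8 (11.9 to 14.5) and Tradd at 12.5 (11.7 to 15.99). Within that middle stretch Tnf overlapped Birc3, Ripk1 and Tradd, and Ripk1 overlapped Tradd, so their order is not resolved, while Birc3 lay above Ripk1 and Tradd in every library. Traf2 at 6.99 (6.27 to 8.07) lay below these, and Traf1 at 4.06 (2.91 to 5.80) was lowest, with no overlap between them. Lengths were those of all annotated exons together, so a gene with long exons that these cells do not use is set too low.

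**Figure D1:**
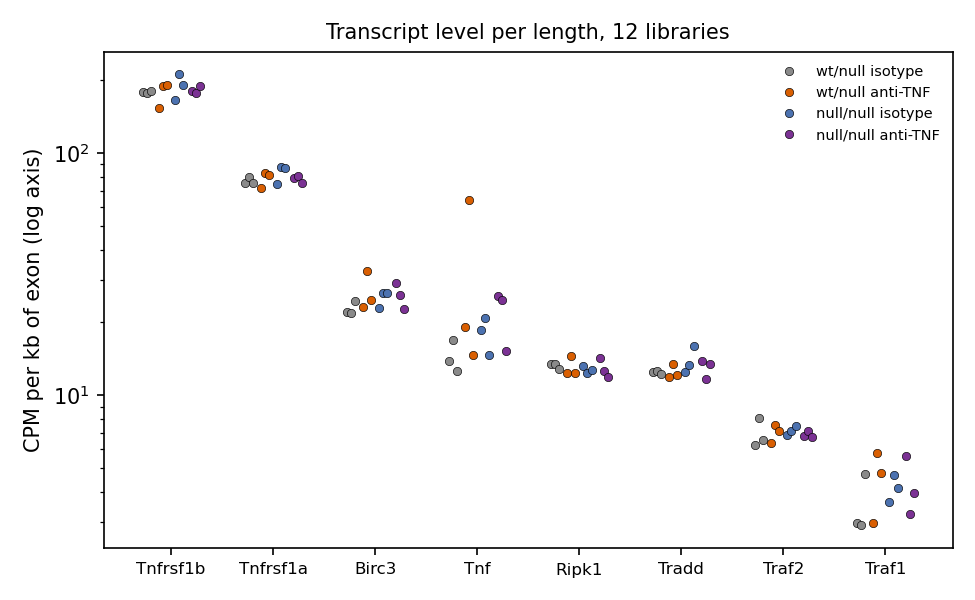
Level per length of each gene in every library, as CPM per kb of annotated exon on a log axis, with 1 point per library coloured by group. The receptors Tnfrsf1b and Tnfrsf1a lie above the other genes in all 12 libraries. On the log axis the spread of Tnf, from 12.7 to 64.1, is the widest.

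Over all 12 libraries the Tnf transcript was the most variable of the 8, and much of its spread came from 1 library. Wt/null isotype libraries held 22.8, 27.7 and 20.7 CPM of Tnf in replicates 1, 2 and 3. Wt/null anti-TNF libraries held 31.3, 105 and 24.1 CPM in the same order. Null/null libraries held 30.6, 34.3 and 24.0 CPM with isotype, and with anti-TNF they held 42.1, 40.8 and 25.0 CPM. Wt/null anti-TNF replicate 2 was far above the other 11 libraries, and the groups overlapped in each of the 4 comparisons between neighbouring groups. In wt/null the group mean was 23.7 ± 3.56 CPM with isotype and 53.5 ± 44.8 CPM with anti-TNF (mean ± SD over 3 libraries), and in null/null it was 29.6 ± 5.21 and 36.0 ± 9.50 CPM. The coefficient of variation of Tnf over the 12 libraries was 64.1%, against a median of 13.3% over all tested genes, and 97.0% of genes varied less. These figures include wt/null anti-TNF replicate 2 and were not computed without it. The other 11 libraries ran from 20.7 to 42.1 CPM of Tnf, and from 25.7 to 49.4 CPM of Traf1.

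**Figure D2:**
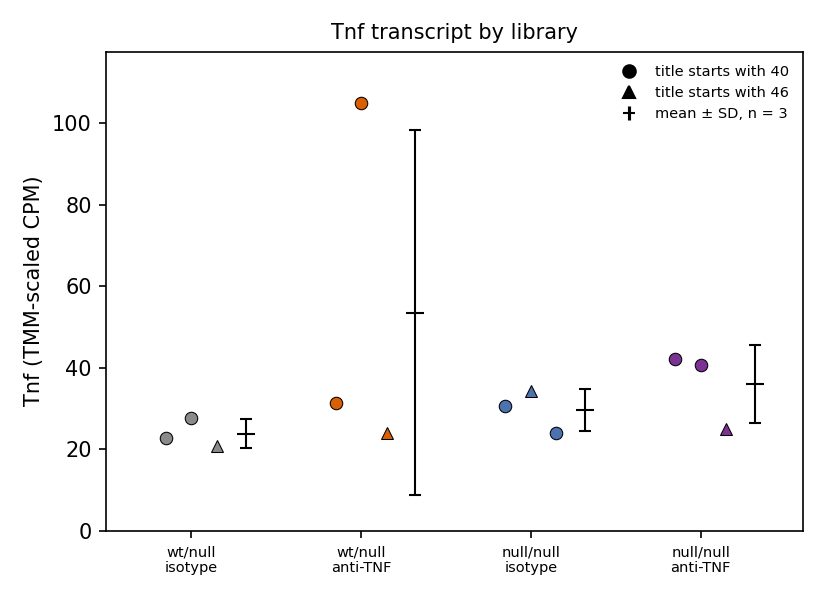
Tnf in each library, in TMM-scaled CPM, by group, with circles for sample titles that start with 40, triangles for those that start with 46, and bars for the mean ± SD of 3 libraries. Wt/null anti-TNF replicate 2, at 105 CPM, lies above all others, which run from 20.7 to 42.1 CPM.

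The comparison of anti-TNF with isotype asks which transcripts of these cells depended on TNF. The estimate for Tnf mRNA was higher under anti-TNF, at 2.25-fold in wt/null mice (95% interval 1.07 to 4.72) and 1.21-fold in null/null mice (0.584 to 2.52). In edgeR's quasi-likelihood test neither passed the threshold, an adjusted p below 0.05 over all tested genes by Benjamini-Hochberg correction (log2 fold change 1.17 ± 0.48, estimate ± SE, adjusted p = 0.895 in wt/null; 0.28 ± 0.47, adjusted p = 0.951 in null/null). Averaged over genotype the log2 fold change was 0.73 ± 0.34 (adjusted p = 0.66 in edgeR). An exact permutation of antibody labels within genotype gave a two-sided p = 0.1 for the difference in mean log2 CPM (0.56, over 400 arrangements, smallest possible p 0.005). Without wt/null anti-TNF replicate 3 this p was 0.035 (difference 0.77), and without null/null anti-TNF replicate 3 it was 0.025 (difference 0.68). With each of the other 10 libraries left out in turn it ran from 0.09 to 0.265, and it was 0.185 without wt/null anti-TNF replicate 2 (difference 0.24). Without both libraries that stand apart this exact permutation p was 0.38 (difference 0.17).

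The size of this estimate depended on wt/null anti-TNF replicate 2. With that library left out, the log2 fold change in wt/null was 0.22 ± 0.23 and the averaged one 0.25 ± 0.15. With both libraries that stand apart left out, the fold was 1.17 (0.829 to 1.64) in wt/null, 1.11 (0.790 to 1.56) in null/null and 1.14 (0.894 to 1.45) averaged over genotype. Sample titles start with 40 or 46, a number whose meaning is not given, and 1 library of each group starts with 46. Both libraries that stand apart have titles that start with 40, and they make up a larger part of that subset than of all libraries. Within those titles the averaged log2 fold change was 1.02 ± 0.37 (adjusted p = 0.417 in edgeR), and with the number as a block it was 0.65 ± 0.33. The 4 libraries whose title starts with 46 held 20.7 CPM (isotype) and 24.1 CPM (anti-TNF) in wt/null, and 34.3 and 25.0 CPM in null/null, so the antibody difference there pointed up in wt/null and down in null/null, with no replicates to test it.

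Summed dendritic cell markers were highest in the library with the most Tnf. Null/null anti-TNF replicate 1, with nearly as much of both lists, held 42.1 CPM of Tnf, close to the 40.8 CPM of null/null anti-TNF replicate 2. That last library summed to 93.8 CPM of dendritic and 69.1 CPM of mature dendritic markers, within the range of the others. The 10 T and NK cell markers summed to 173 CPM in wt/null anti-TNF replicate 2, within the 98.4 to 202 CPM of the other libraries. The part of any admixed cell in the Tnf values was not tested, and in bulk RNA fewer cells of a type cannot be told apart from less RNA per cell.

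**Figure D3:**
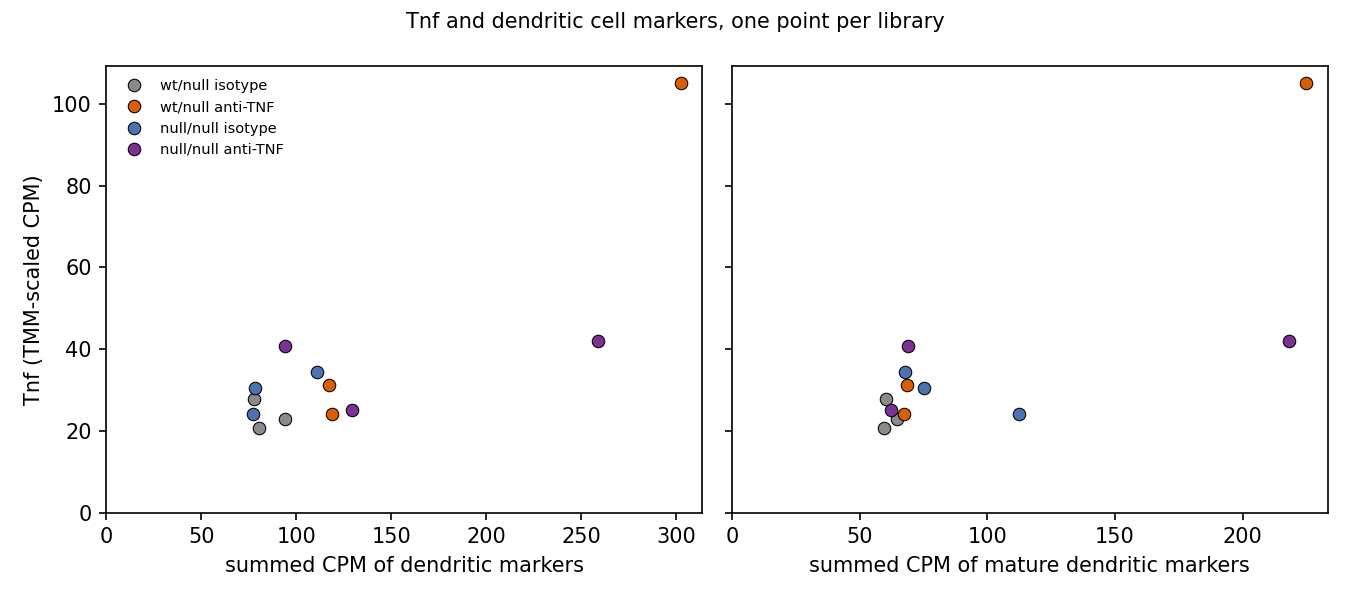
Tnf in TMM-scaled CPM against the summed CPM of 6 dendritic cell markers (left) and 4 mature dendritic cell markers (right), with 1 point per library coloured by group. The libraries at 302 and 259 CPM of dendritic markers hold 105 and 42.1 CPM of Tnf.

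No genotype effect on Tnf passed the test. Under isotype antibody the fold of null/null over wt/null was 1.25 (0.598 to 2.61), and under anti-TNF it was 0.673 (0.325 to 1.39). Without wt/null anti-TNF replicate 2 the fold under anti-TNF turned to 1.30 (0.913 to 1.85), and the averaged one turned from 0.917 (0.546 to 1.54) to 1.27 (1.01 to 1.61), with an adjusted p of 1.00 in edgeR for both. The adjusted p in edgeR was 1.00 in both comparisons. The averaged log2 fold change was -0.13 ± 0.34, whereas the mean log2 CPM differed by 0.010 (exact permutation within antibody, two-sided p = 0.99), so the sign depended on the scale. The interaction, the antibody effect in null/null minus that in wt/null, was -0.89 ± 0.67 on the log2 scale (95% interval -2.39 to 0.60), and 0.057 with wt/null anti-TNF replicate 2 left out. With all libraries these intervals were wide and all included no difference.

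Both receptor transcripts were steady across the groups. Tnfrsf1a, the death domain receptor TNFR1, was at 199 ± 6.47 CPM with isotype and 204 ± 15.3 with anti-TNF in wt/null (mean ± SD over 3 libraries), and at 215 ± 19.3 and 203 ± 6.65 CPM in null/null. Its 12 values ran from 186 CPM in wt/null anti-TNF replicate 1 to 227 CPM in null/null isotype replicate 2. Tnfrsf1b, the leukocyte receptor TNFR2, was at 681 ± 5.09, 679 ± 79.2, 723 ± 88.8 and 694 ± 25.0 CPM in the same order. The same libraries were lowest and highest for Tnfrsf1b, at 587 and 809 CPM, and the groups overlapped for both receptors in each comparison.

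Neither receptor was called in any comparison, and the intervals of the averaged effects were narrow. Intervals of the other comparisons were wider, and for the interaction that of Tnfrsf1b ran from 0.762 to 1.22 as a ratio of folds. The averaged antibody effect was a fold of 0.985 (95% interval 0.895 to 1.08) for Tnfrsf1a and 0.978 (0.870 to 1.10) for Tnfrsf1b. The averaged genotype effect was 1.04 (0.944 to 1.14) for Tnfrsf1a and 1.04 (0.927 to 1.17) for Tnfrsf1b. The coefficient of variation was 6.27% for Tnfrsf1a and 7.93% for Tnfrsf1b, and 7.06% and 17.4% of tested genes varied less. Across the 12 libraries the 2 receptors varied together (Pearson r = 0.81, Spearman rho = 0.75 of log2 CPM, a description over libraries that share their scaling).

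The balance of the receptors was also even between groups. Counts of Tnfrsf1b were 3.43 ± 0.133 times those of Tnfrsf1a with isotype and 3.32 ± 0.148 times with anti-TNF in wt/null (mean ± SD over 3 libraries), and 3.36 ± 0.183 and 3.42 ± 0.237 times in null/null. Per kb of exon the ratio had a median of 2.28 (2.14 to 2.50 over the 12 libraries). The log2 ratio differed by -0.0099 between antibodies and by 0.0048 between genotypes (exact permutation within strata, two-sided p = 0.825 and p = 0.9). This ratio is taken within a library and so does not depend on how libraries were scaled.

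**Figure D4:**
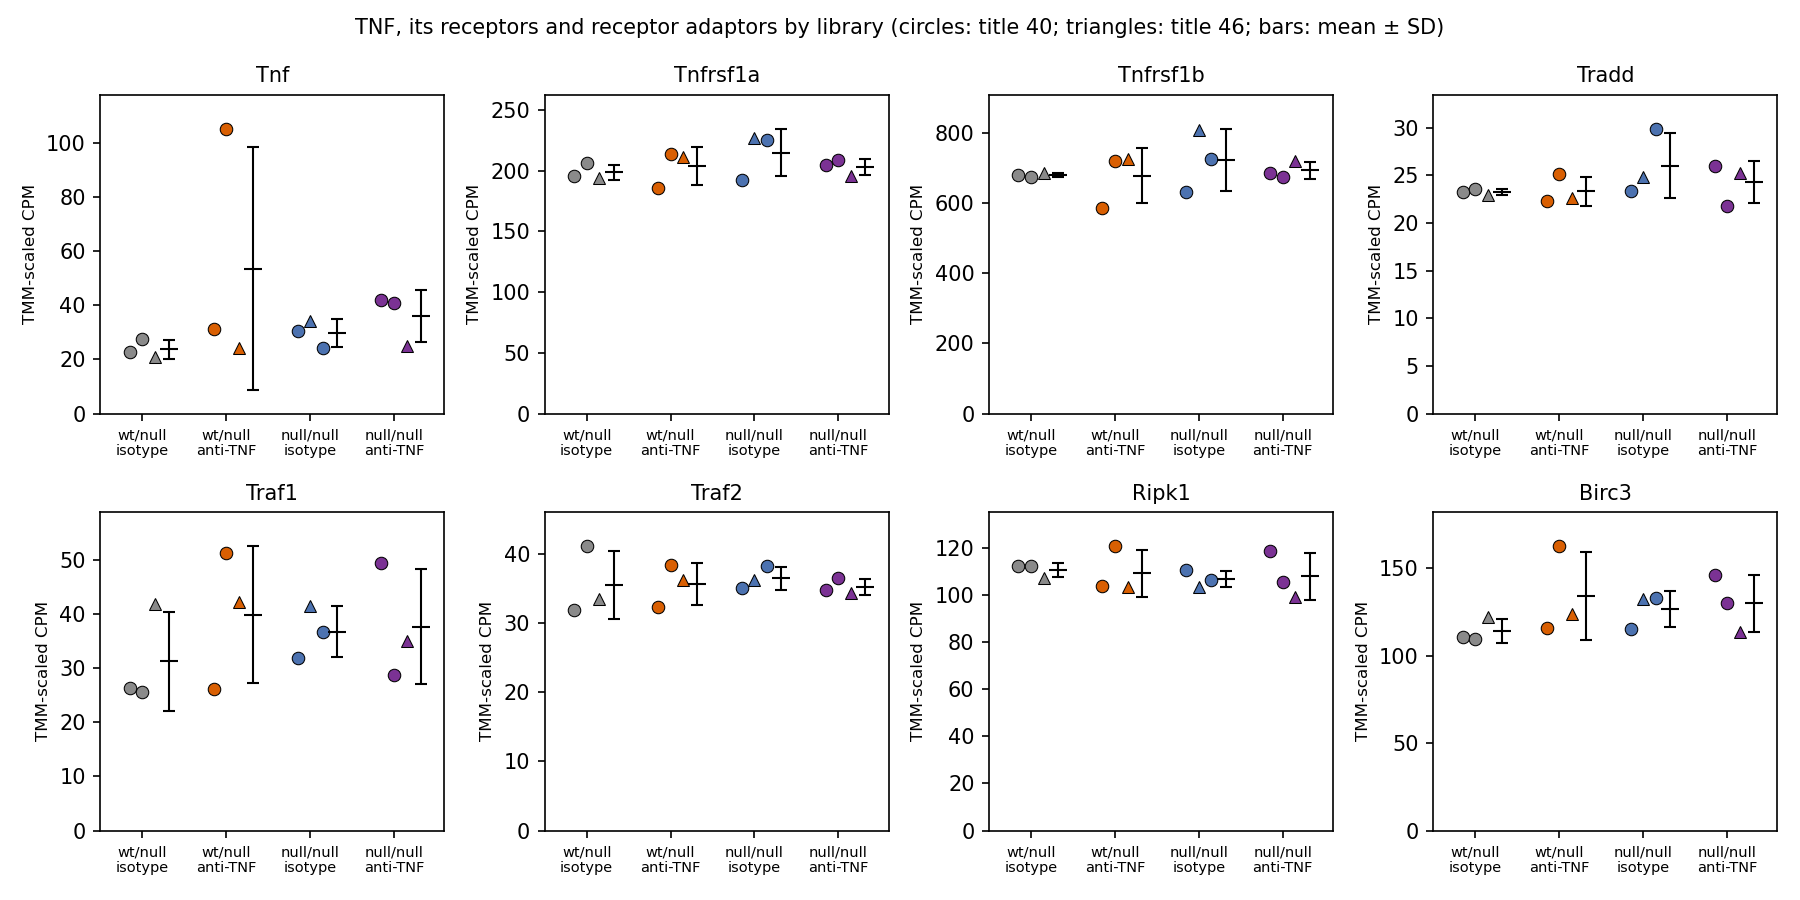
TMM-scaled CPM of the 8 genes in every library by group, with circles for titles that start with 40, triangles for titles that start with 46, and bars for the mean ± SD of 3 libraries; each axis starts at 0. Tnf spans a 5.06-fold range and Traf1 a 1.99-fold range, and the other 6 genes span at most 1.49-fold.

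Of the adaptors, the death domain protein TRADD and the kinase RIPK1 bind TNFR1, and both transcripts were even across the groups. Tradd was at 23.2 ± 0.316 CPM with isotype and 23.3 ± 1.53 with anti-TNF in wt/null (mean ± SD over 3 libraries), and at 26.0 ± 3.41 and 24.3 ± 2.202 CPM in null/null. Its highest library was null/null isotype replicate 3 at 29.8 CPM, and the other 11 lay between 21.8 and 26.0 CPM. The averaged genotype effect on Tradd was a fold of 1.08 (0.963 to 1.21). Ripk1 had the lowest coefficient of variation of the 8, 5.98%, with values from 99.5 to 121 CPM and an averaged antibody effect of 0.999-fold (0.908 to 1.10). The first bases of Ripk1 overlap Serpinb6a on the other strand, and 2 processed pseudogenes lie within it; 1 lies within Traf2. Which strand setting was used for counting is not known here, so reads from that overlap may be shared.

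Traf2, the ubiquitin ligase adaptor shared by both receptors, ranged from 31.98 to 41.2 CPM, both extremes in wt/null isotype libraries. Its averaged effects were 0.985-fold (0.882 to 1.10) for the antibody and 1.01-fold (0.902 to 1.13) for the genotype. Traf1 and Birc3 varied more than the other adaptors. Their coefficients of variation were 24.6% and 12.6%, against a median of 13.3% over all tested genes. Traf1, an adaptor that joins TRAF2 at TNFR2, was at 26.3, 25.7 and 41.8 CPM in wt/null isotype replicates 1, 2 and 3 and at 26.2, 51.2 and 42.2 CPM in wt/null anti-TNF. In null/null it was at 31.9, 41.4 and 36.7 CPM with isotype and at 49.4, 28.7 and 34.9 CPM with anti-TNF. The highest values were in the 2 libraries that stand apart. Libraries whose title starts with 46 were at 34.9 to 42.2 CPM, and the lowest 4 values were all in titles that start with 40. The averaged effects on Traf1 were 1.14-fold (0.847 to 1.54) for the antibody and 1.05-fold (0.780 to 1.42) for the genotype. Left without the 2 libraries that stand apart, the antibody estimate for Traf1 turned from 0.19 to -0.040 on the log2 scale.

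Birc3, which encodes the ubiquitin ligase cIAP2, was at 114 ± 7.14 CPM with isotype and 134 ± 25.1 with anti-TNF in wt/null (mean ± SD over 3 libraries), and at 127 ± 10.1 and 130 ± 16.4 CPM in null/null. Its highest values, 163 and 146 CPM, were again in wt/null anti-TNF replicate 2 and null/null anti-TNF replicate 1, and the other 10 libraries lay between 109 and 133 CPM. The averaged antibody effect was 1.10-fold (0.954 to 1.26) and the averaged genotype effect 1.04-fold (0.901 to 1.19). Without those libraries the averaged antibody effect on Birc3 was 0.0071 ± 0.074 on the log2 scale, against 0.13 ± 0.093 with them. Traf1 and Birc3 varied together over the 12 libraries (r = 0.80, rho = 0.78). Tnf and Birc3 had r = 0.79 and rho = 0.53, and r fell to 0.54 without wt/null anti-TNF replicate 2. Tnf and Traf1 had r = 0.44, which fell to 0.073 without that library.

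Over the 8 genes, edgeR called 0 for the antibody in wt/null, where 0% of all tested genes were called, and 0 in null/null, where 0% were called. It called 0 for the antibody averaged over genotype (0% of all genes) and 0 for the interaction (0% of all genes). It called 0 for the genotype under isotype, under anti-TNF and averaged over antibody, where 0.0077% of all genes were called in each, that is Ifngr1 alone. DESeq2 and limma voom also called 0 of the 8 in each of the 7 comparisons. At an unadjusted p below 0.05 there was 1 of 56 tests, Tnf for the antibody in wt/null, and 4.48% of all genes passed that mark in the same comparison. In CPM, 0 of the 8 genes had groups that did not overlap, against 10.2% of all genes for the antibody in wt/null, 8.41% for the antibody in null/null, 7.96% for the genotype under isotype and 5.15% for the genotype under anti-TNF. The median log2 fold change of the 8 was -0.012 for the averaged antibody effect and 0.054 for the averaged genotype effect, against 0.0057 and 0.00023 over all genes.

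**Figure D5:**
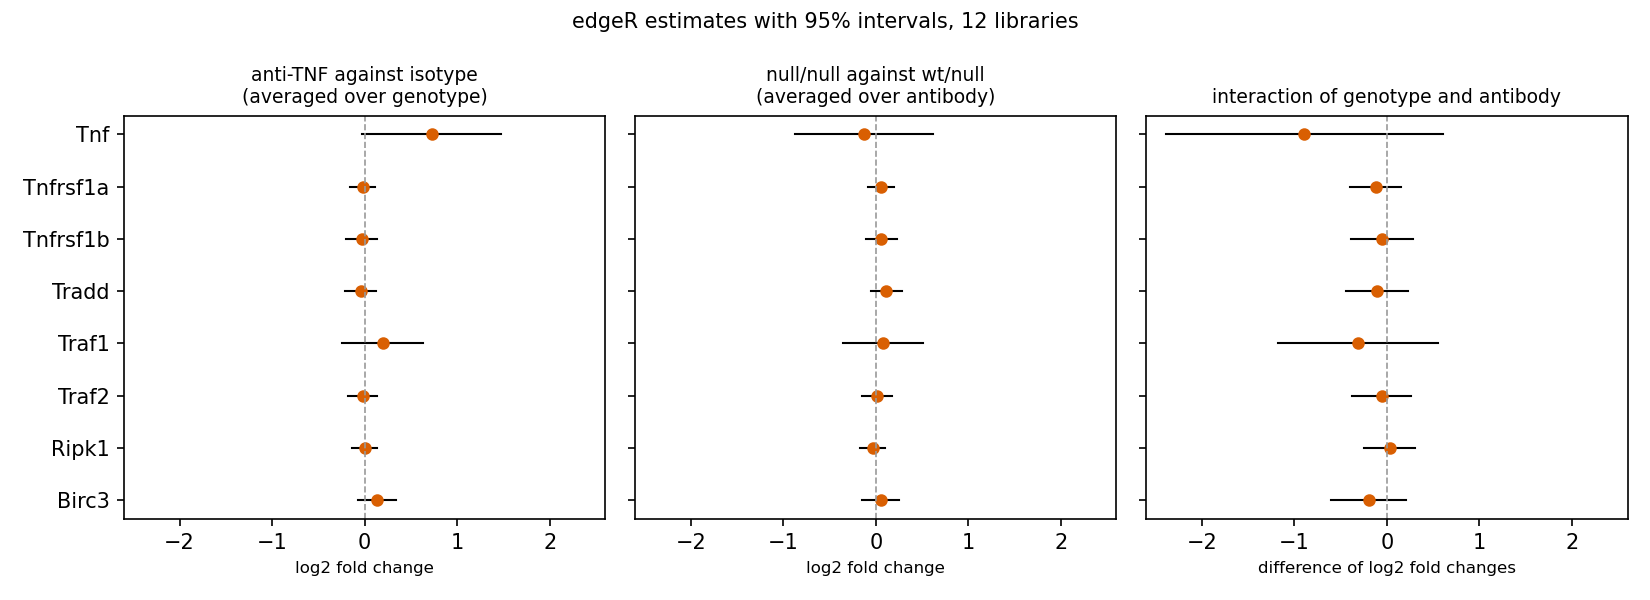
Estimates of edgeR for the 8 genes with 95% intervals, as log2 fold changes, for anti-TNF against isotype averaged over genotype (left), null/null against wt/null averaged over antibody (middle) and the interaction (right). The intervals of all 8 genes include 0 in each panel, and that of Tnf is the widest in each; for the antibody it runs from -0.024 to 1.47.

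Other genes of the TNF pathway were described by lists, and edgeR called 0 of them for either averaged effect. Of the 5 genes that govern the release of TNF from the membrane (Adam17, Rhbdf1, Rhbdf2, Frmd8 and Timp3), 4 had lower estimates under anti-TNF (median log2 fold change -0.087), and 3 without the 2 libraries that stand apart (median -0.058). Adam17, the sheddase, ran from 323 to 435 CPM with an averaged antibody effect of -0.088 ± 0.073 on the log2 scale. Timp3, an inhibitor of ADAM17, had an averaged genotype effect of -0.51 ± 0.18 (adjusted p = 1.00 in edgeR) at 2.31 to 7.35 CPM. The estimate was -0.80 ± 0.26 under isotype and -0.23 ± 0.26 under anti-TNF, and the interaction was 0.57 ± 0.37. Rhbdf2, which carries ADAM17 to the cell surface, had a genotype effect of 0.17 ± 0.087.

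Of 22 further proteins of the receptor complex, 18 had higher estimates under anti-TNF averaged over genotype (median 0.056), and 11 of 22 without the 2 libraries that stand apart (median -0.0016). Those with the smallest p were the adaptor Traf5 (0.23 ± 0.088) and Tab3 (0.27 ± 0.11), which helps activate the kinase TAK1. These were 0.18 ± 0.094 and 0.14 ± 0.098 without the 2 libraries. For the genotype it was Tnip2, an inhibitor of NF-κB signalling (0.18 ± 0.078). Each had an adjusted p of at least 0.66 in edgeR. Of 7 genes of the cell death arm, 6 had higher estimates under anti-TNF (median 0.052), and 4 without the 2 libraries. Mlkl, the effector of necroptosis, had an averaged genotype effect of -0.30 ± 0.17 on the log2 scale (adjusted p = 1.00 in edgeR).

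Genes that control the stability of Tnf mRNA had higher estimates under anti-TNF in 8 of 9 (median 0.12), and in 8 of 9 without the 2 libraries (median 0.031), with 0 called. Zfp36, whose protein binds the AU-rich element shown above, stood between 757 and 1147 CPM in the 6 isotype libraries. Under anti-TNF it stood at 910, 1629 and 1074 CPM in wt/null and at 1168, 1324 and 788 CPM in null/null. Its averaged antibody effect was 0.28 ± 0.17 on the log2 scale (adjusted p = 0.674 in edgeR), and 0.11 ± 0.16 without the 2 libraries. Wt/null anti-TNF replicate 2 thus held the most Zfp36 as well as the most Tnf. Zc3h12a, an RNase that cuts cytokine mRNAs, had an averaged antibody effect of 0.37 ± 0.21, and of 0.15 ± 0.20 without them.

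Other ligands of the TNF family gave no call for the antibody. Of 16 ligands 11 passed the filter, and Lta, Tnfsf11, Fasl, Cd40lg and Cd70 did not. In wt/null 11 of the 11 were higher (median log2 fold change 0.46, against 0.0037 over all genes), in null/null 9 of 11 were (median 0.27), and averaged over genotype 9 of 11 were (median 0.37). Without the 2 libraries it was 8 of 11 in wt/null (median 0.21), 5 of 11 in null/null (median -0.046) and 9 of 11 averaged (median 0.098). Ltb, a subunit of lymphotoxin, was at 8.76 and 7.69 CPM in the 2 libraries that stand apart and at 1.19 to 3.17 CPM in the other 10. Tnfsf9, the ligand of the costimulatory receptor 4-1BB, was at 61.7 and 44.5 CPM in them and at 13.4 to 25.7 CPM in the others. Tnfsf14 was at 15.0 and 17.1 CPM against 4.13 to 7.82 CPM. The averaged antibody effects were 1.10 ± 0.39 for Ltb, 0.82 ± 0.35 for Tnfsf9 and 0.74 ± 0.26 for Tnfsf14, with adjusted p = 0.66 in edgeR for each. In the same order they were 0.32 ± 0.22, 0.17 ± 0.15 and 0.26 ± 0.13 without the 2 libraries. Tnfsf4, the ligand of OX40, had an averaged genotype effect of 1.46 ± 0.53 (adjusted p = 1.00 in edgeR) at no more than 3.30 CPM.

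Other receptors of the family gave no call among the 22 of 25 that passed the filter. Averaged over genotype 13 of 22 had higher estimates under anti-TNF (median 0.090), and 12 of 22 without the 2 libraries (median 0.055). Tnfrsf9, Tnfrsf18 and Tnfrsf13c, receptors known from lymphocytes, had the smallest p (adjusted p = 0.66 in edgeR for each) and were low, at no more than 5.24 CPM in any library. Their effects were 0.83 ± 0.35, 0.92 ± 0.41 and 1.15 ± 0.48, and 0.38 ± 0.33, 0.22 ± 0.31 and 0.45 ± 0.45 without the 2 libraries.

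Genes that TNF is known to induce gave no call for the antibody. Of the 20 that passed the filter, 14 had higher estimates under anti-TNF averaged over genotype (median 0.29, against 0.0057 over all genes) and 0 were called. Without the 2 libraries it was 11 of 20 (median 0.030). In wt/null 15 of 20 were higher (median 0.42) and in null/null 12 of 20 (median 0.049). Without the 2 libraries these were 14 of 20 (median 0.14) and 7 of 20 (median -0.082). The chemokine Cxcl1 had an averaged antibody effect of 0.86 ± 0.33 and the cytokine Il6 one of 0.67 ± 0.25, with adjusted p = 0.66 in edgeR for both. They were 0.45 ± 0.28 and 0.51 ± 0.28 without the 2 libraries. Sod2, the mitochondrial superoxide dismutase, pointed the other way at -0.18 ± 0.080 (adjusted p = 0.66 in edgeR), and was at -0.14 ± 0.090 without them. Nfkb2, a subunit of NF-κB, had the smallest p for the genotype, with an averaged effect of 0.19 ± 0.052 (adjusted p = 1.00 in edgeR). Without the 2 libraries it was 0.20 ± 0.063. Of the 20 genes, 1 passed an unadjusted p of 0.05 in edgeR for the averaged genotype effect, against 2.46% of all genes. For the antibody it was 5 in wt/null (4.48% of all genes), 0 in null/null (3.48%) and 3 averaged (7.31%). For the genotype under isotype it was 2 (1.80%). Without the 2 libraries these antibody counts were 0, 0 and 1, and the count for the genotype under isotype was 5. The share of all genes was not computed without them. Under isotype antibody 18 of the 20 had higher estimates in null/null than in wt/null (median 0.24), and 0 were called. Under anti-TNF it was 8 of 20 (median -0.048), or 15 of 20 without the 2 libraries (median 0.12). The interaction estimate was below 0 in 20 of 20 (median -0.27, and -0.16 without the 2 libraries, against -0.0033 over all genes with all libraries), and 0 were called. With all libraries 49.4% of all genes had an interaction estimate above 0. Of the 20 genes, 0 passed an unadjusted p of 0.05 in edgeR for the interaction. Genes of a list were read in the same libraries, so a count of genes, here and for the other lists, is not a count of independent results. The interaction and the comparisons within a genotype share libraries, so these counts are not independent of each other.

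Genes whose levels followed Tnf most closely over the 12 libraries were Ccl4, Icosl, Rhoh, Ece1 and 6530402F18Rik, out of 8822 genes whose log2 CPM averaged 3 or more. Ccl4, a chemokine for monocytes and T cells, had r = 0.92 and rho = 0.77 with Tnf, at 35.6 to 177 CPM. Icosl, the ligand of the T cell receptor ICOS, had r = 0.91 and rho = 0.82. Rhoh had r = 0.91 and rho = 0.98, and its r stayed at 0.91 without wt/null anti-TNF replicate 2. Without that library r was 0.77 for Ccl4, 0.78 for Icosl, 0.85 for Ece1 and 0.67 for 6530402F18Rik. All 5 genes were highest in wt/null anti-TNF replicate 2. The 5 that followed the mean of both receptors were Slc15a3, Klhl36, Ubald1, Cnpy3 and Crlf2, with r between 0.92 and 0.95. Slc15a3, a lysosomal peptide transporter, had r = 0.95 with them with and without that library, at 262 to 417 CPM. These correlations describe 12 libraries that share their scaling, and genes were picked as the highest of many.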

How the data were processed

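RNA of sorted muscle myeloid cells was sequenced in 12 libraries, 3 in each of 4 groups. The authors deposited raw read counts by symbol: whole numbers whose totals differ between libraries. Per the submitters' processing notes, bcl2fastq 2.20, STAR, Bowtie and build mm10 were used, without stated roles. Per the labels, libraries came from a stranded mRNA kit. The counting tool, its strand setting and the annotation are not given in the sources used here.

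Counts were filtered with filterByExpr, which kept 12981 genes holding at least 99.97% of each library. They were scaled by TMM and fitted in edgeR 4.0.16 (R 4.3.3) by its robust quasi-likelihood method, with a mean for each of the 4 groups. There were 7 comparisons: 2 of antibodies within a genotype, 2 of genotypes within an antibody treatment, their interaction, and the average of each kind. Tests were two-sided, with Benjamini-Hochberg correction over all tested genes. The fit was tested on simulated data with the same spread for every gene and no outlying library. That simulation therefore does not cover libraries that stand apart or a gene as variable as Tnf. Intervals are 95%, and log2 CPM used a prior count of 2.

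Lists, members and the 2 libraries left out together were chosen with earlier results of these data known. Named were the 8 genes, up to 4 genes of each list with the smallest p for an averaged effect, and the 5 genes most correlated with Tnf and with the receptors. A gene named by this rule is not reported here. Positions, lengths and 3′ regions came from GENCODE vM21 on mm10, and promoters from RefSeq GRCm38.p6, where 7 of the 8 genes matched and Tradd did not. Motifs were also chosen with the counts known. Replicate numbers follow the order of the sample list and pair nothing. Alternatives were DESeq2 1.42.0 on all genes with any count, limma 3.58.1 voom with quality weights, and other scaling and filters. The quality weights give outlying libraries less influence. Further alternatives were the title number as a block and subsets of the libraries.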

Additional observations from a re-analysis of the deposited data

How the results depend on the processing

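No paired analysis was possible because replicate numbers follow the order of the sample list and pair nothing. None of the 8 genes was called under any alternative. The count of all genes called moved under 3 settings. DESeq2 called 2 for the genotype under isotype, 2 under anti-TNF, 2 for the averaged antibody and 4 for the averaged genotype. A fit of only the groups compared called 1 for the antibody in null/null and 0 for the genotype under anti-TNF. Titles that start with 40 alone gave 0, 0 and 1 for the genotype under isotype, the genotype under anti-TNF and the averaged antibody. These rest on fewer libraries, or on another test over another set of genes, and the cause was not tested.

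Uncalled estimates changed sign (log2 fold changes); most were near 0 with all libraries, but Tnf for the genotype under anti-TNF was at -0.57. With limma voom these were Tradd -0.018 and Traf2 -0.035 for the antibody in wt/null, Traf1 -0.16, Ripk1 -0.013 and Birc3 -0.054 in null/null, Tnfrsf1a 0.015 and Traf2 0.017 for the genotype under anti-TNF, and Tnf 0.069 for the averaged genotype. With a filter of 1 CPM, the Ripk1 log2 fold change, antibody averaged over genotype, was 0.00026. With titles that start with 40, the antibody in wt/null gave Tnfrsf1a -0.0070 and Traf2 -0.047, and the averaged antibody gave Ripk1 0.022. There the genotype under anti-TNF gave Tnfrsf1a 0.049, Traf1 0.014, Traf2 0.010 and Ripk1 0.00039, and the interaction gave Tnfrsf1b 0.052 and Traf2 0.0065. The Tnf level by genotype was then -0.18 and the receptor ratio by genotype -0.022. Without the 2 libraries that stand apart, the antibody gave Tradd -0.047 and Traf2 -0.050 in wt/null, Traf1 -0.21, Ripk1 -0.061 and Birc3 -0.056 in null/null, and Traf1 -0.040 averaged. There the genotype under anti-TNF gave Tnf 0.25, Tnfrsf1a 0.026, Traf2 0.048 and Birc3 0.024, the averaged genotype gave Tnf 0.28, and the interaction gave Tnfrsf1b 0.00010 and Traf2 0.0092.

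Leaving out each library in turn gave these ranges where a sign or a call changed. For the antibody in null/null it was Birc3 -0.056 to 0.13, Ripk1 -0.061 to 0.074, Tnfrsf1b -0.14 to 0.029, Tradd -0.16 to 0.015, Traf1 -0.21 to 0.20. For the genotype under anti-TNF it was Birc3 -0.14 to 0.12, Ripk1 -0.093 to 0.059, Tnf -0.92 to 0.38, Tnfrsf1a -0.066 to 0.031, Tnfrsf1b -0.062 to 0.085, Traf1 -0.32 to 0.14, Traf2 -0.083 to 0.039. For the antibody averaged over genotype it was Ripk1 -0.040 to 0.027, Tnfrsf1a -0.057 to 0.0077, Tnfrsf1b -0.074 to 0.015, Tradd -0.079 to 0.011, Traf2 -0.058 to 0.038. For the antibody in wt/null it was Ripk1 -0.095 to 0.020, Tnfrsf1b -0.057 to 0.089, Tradd -0.048 to 0.038, Traf2 -0.065 to 0.12. For the genotype averaged over antibody it was Ripk1 -0.072 to 0.0047, Tnf -0.30 to 0.35, Traf1 -0.048 to 0.21, Traf2 -0.025 to 0.067. For the interaction it was Ripk1 -0.043 to 0.11, Tnf -1.24 to 0.057, Tnfrsf1b -0.15 to 0.034, Tradd -0.17 to 0.0073, Traf2 -0.17 to 0.014. For the genotype under isotype it was Tnfrsf1b -0.0017 to 0.17, Traf2 -0.032 to 0.15. The permutation difference of Tnf in log2 CPM was 0.24 to 0.77 by antibody and -0.20 to 0.33 by genotype, and that of the receptor ratio -0.037 to 0.012 by antibody and -0.023 to 0.026 by genotype.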
